A study of Arabidopsis thaliana with 9 samples.

Results

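The transcriptomes of Arabidopsis thaliana seedlings given flg22 were set against those of mock seedlings across all genes and gene families. flg22 is a peptide from the conserved part of bacterial flagellin. The comparison used 6 of the 9 libraries of the study, 3 of flg22 and 3 of mock. Both groups were whole wild-type seedlings of the ecotype Col-0, grown for 5 days on solid medium and for 5 more in liquid. flg22 was given at 100 nM, and mock seedlings carry a label of no treatment. The other 3 libraries, from seedlings given 2-AA at 200 µM, entered the fit only to share the estimate of the spread. How long flg22 was left on, at what hour seedlings were collected and what mock seedlings were given could not be read from the labels. Libraries of a group are called biological replicates, without word of separate cultures, and every p-value rests on the spread among them, which may be technical. Of 32833 loci in the deposited table of read counts, 21059 had enough reads to be tested.

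flg22 is bound at the cell surface by the leucine-rich repeat receptor kinase FLS2 with the co-receptor BAK1. Binding opens calcium channels, activates an oxidase and MAP kinases, and changes transcription through WRKY and other factors within minutes to hours. Long exposure slows seedling growth. Plant immunity also works inside the cell, where nucleotide-binding leucine-rich repeat receptors sense effectors of pathogens. The circadian clock sets a daily rhythm on many plant genes, immune genes among them.

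Library totals were 30158953, 27837775 and 28609458 counts for flg22, against 30686591, 33195007 and 30876120 for mock. Organelle-encoded genes took 0.0317 to 0.109% of the counts with flg22 and 0.0363 to 0.154% in mock, with flg22 replicate 2 and mock replicate 3 at the upper ends. On the first principal component over all 9 libraries flg22 libraries lay at 28.6 to 46.8 and mock libraries at -95.4 to -89.8. flg22 replicate 3, at 28.6, stood nearest to mock. Counts were compared with edgeR's quasi-likelihood test, and a gene was called where the p adjusted by Benjamini-Hochberg over all genes tested was under 0.05. All adjusted p-values here come from that test. Levels are in CPM, read counts scaled to a common library size by TMM, given in the order of replicates 1, 2 and 3 and otherwise as a mean ± SD (n = 3 libraries in each group). CPM is not divided by gene length, so levels are compared between groups and not between genes. Of the genes tested, 59.2% were called, 29.8% higher with flg22 and 29.4% lower, around a median log2 fold change of 0.00. These shares are the background for each family count below. TMM centres most genes near no change, so a shift in total RNA would not show in these shares. Calls of at least 2-fold covered 9.26% of genes as rises and 9.71% as falls. In bulk libraries, fewer cells of a type and less RNA per cell cannot be told apart.

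Clock genes differed between the groups throughout the oscillator. All 13 evening-phased genes examined were higher with flg22, against 29.8% of all genes, with a median log2 fold change of 2.96. Of 12 morning-phased genes, 10 were lower, against 29.4% of all genes, PRR7 and RVE7 were not called, and the median was -3.08. PRR7 was at 0.16 on the log2 scale and at 0.32, past the threshold, without flg22 replicate 3. RVE7, listed as EPR1, was at -0.27 and at -0.40, past the threshold, without flg22 replicate 1, and passed also with the replicate number as a block. LNK3 (AT3G12320), a co-activator of the morning, had 1.84, 2.75 and 0.812 CPM in flg22 seedlings, against 48.7, 54.8 and 39.96 CPM in mock seedlings (log2 fold change -4.74, SE 0.40, adjusted p = 3.49e-07). RVE8, the MYB-like activator that works with LNK proteins, had 5.18, 3.18 and 4.13 CPM in flg22 seedlings, against 49.1, 48.9 and 45.9 CPM in mock seedlings (log2 fold change -3.52, SE 0.20, adjusted p = 1.30e-08). On the evening side PRR3, a pseudo-response regulator, had 65.9, 79.2 and 70.6 CPM in flg22 seedlings, against 1.84, 1.92 and 3.22 CPM in mock seedlings (log2 fold change 4.95, SE 0.17, adjusted p = 1.89e-10). ELF4, a subunit of the evening complex, had 112, 123 and 114 CPM in flg22 seedlings, against 4.72, 4.62 and 6.51 CPM in mock seedlings (log2 fold change 4.46, SE 0.12, adjusted p = 4.50e-11). For each of these 4 genes the flg22 and mock libraries were far apart and did not overlap. COR27, an evening regulator of clock and cold responses, had 48.4, 60.8 and 47.9 CPM in flg22 seedlings, against 0, 0.0608 and 0.822 CPM in mock seedlings. Its log2 fold change of 7.48 was 10.52 without mock replicate 3, the mock library with the highest level. As the hours of treatment and collection are unknown here, treatment and time of day cannot be told apart in these data. A related list of 12 genes induced by darkness or sugar shortage had 8 members higher, 2 lower and 2 not called, among them SEN1 at 493 ± 147 CPM with flg22 and 95.3 ± 12.4 CPM in mock and ASN1, a glutamine-dependent asparagine synthetase gene, at 85.96 ± 30.01 CPM with flg22 and 29.6 ± 6.77 CPM in mock. The part of clock phase and carbon state in the results that follow was not tested.

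**Figure D1:**
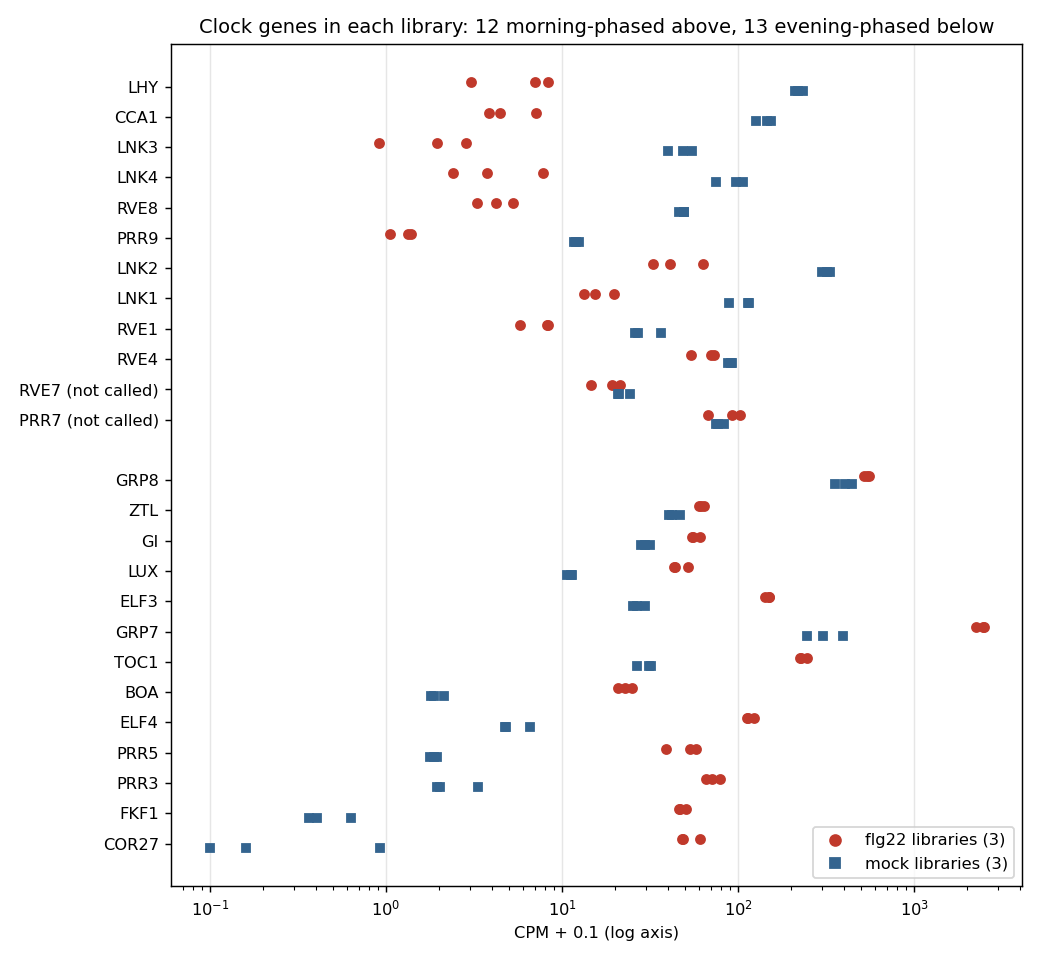
CPM plus 0.1 on a log axis for 12 morning-phased clock genes (upper block) and 13 evening-phased ones (lower block), with 1 red circle per flg22 library and 1 blue square per mock library. For LNK3, RVE8, PRR3 and ELF4 no flg22 library reaches the range of the mock libraries, while for PRR7 and RVE7 the groups overlap.

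Promoters of 6 genes are printed as examples of the motifs counted further on. Each is the 250 bases before the gene start of the RefSeq annotation of the TAIR10.1 assembly, written in the direction of transcription. Capitals mark the named motif on either strand. GRP7 shows repeated evening elements (AAAATATCT) in a clock-regulated gene that rose, RPP4 the same element in an intracellular receptor gene, and WAKL6 an evening element between W-boxes (TTGACC or TTGACT), the motif bound by WRKY factors. RPP4 and WAKL6 are single cases, since evening elements stood in 3 of 80 promoters of RPP4's receptor class and in 1 of 17 of WAKL6's family. CRK18 shows W-boxes in a receptor kinase gene. LNK3 shows G-boxes (CACGTG) in a gene that fell, and AT2G44860 a telo-box (AAACCCTA) with site II motifs (TGGGCC) in a ribosomal protein L24e family gene that fell.
GRP7, chr2:9266558-9266807, minus strand: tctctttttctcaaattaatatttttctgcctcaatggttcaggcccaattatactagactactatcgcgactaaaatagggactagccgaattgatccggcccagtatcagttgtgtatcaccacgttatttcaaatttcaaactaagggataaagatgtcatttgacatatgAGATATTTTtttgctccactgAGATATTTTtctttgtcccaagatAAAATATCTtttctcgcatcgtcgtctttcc
RPP4, chr4:9495838-9496087, minus strand: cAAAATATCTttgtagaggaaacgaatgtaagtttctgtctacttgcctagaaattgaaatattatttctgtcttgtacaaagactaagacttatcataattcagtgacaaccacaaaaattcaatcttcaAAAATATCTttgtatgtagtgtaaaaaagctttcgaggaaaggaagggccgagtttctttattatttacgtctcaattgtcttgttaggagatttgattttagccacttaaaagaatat
WAKL6, chr1:5517969-5518218, plus strand: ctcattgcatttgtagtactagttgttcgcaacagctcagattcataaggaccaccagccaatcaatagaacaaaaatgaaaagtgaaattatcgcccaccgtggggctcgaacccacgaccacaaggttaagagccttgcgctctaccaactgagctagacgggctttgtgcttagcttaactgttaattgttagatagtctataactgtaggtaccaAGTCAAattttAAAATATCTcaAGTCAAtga
CRK18, chr4:12170081-12170330, minus strand: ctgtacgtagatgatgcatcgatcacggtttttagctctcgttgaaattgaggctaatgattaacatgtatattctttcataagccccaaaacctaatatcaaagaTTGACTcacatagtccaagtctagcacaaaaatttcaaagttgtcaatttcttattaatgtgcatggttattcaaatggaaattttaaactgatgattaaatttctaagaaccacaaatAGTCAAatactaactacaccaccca
LNK3, chr3:3923265-3923514, plus strand: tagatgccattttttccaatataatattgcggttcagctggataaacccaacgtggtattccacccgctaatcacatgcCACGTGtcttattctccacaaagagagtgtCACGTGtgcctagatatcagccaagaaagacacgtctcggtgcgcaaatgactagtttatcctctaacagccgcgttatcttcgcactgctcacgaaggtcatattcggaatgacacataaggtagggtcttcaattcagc
AT2G44860, chr2:18502563-18502812, minus strand: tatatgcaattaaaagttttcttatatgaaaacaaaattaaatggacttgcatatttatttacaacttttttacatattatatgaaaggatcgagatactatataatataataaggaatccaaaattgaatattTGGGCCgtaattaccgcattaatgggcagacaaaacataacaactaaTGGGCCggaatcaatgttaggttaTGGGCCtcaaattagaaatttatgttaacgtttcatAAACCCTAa
GRP7 held 3 evening elements at 76, 55 and 31 bases before its start. RPP4 held 2, at 249 and 119 bases. WAKL6 held W-boxes at 31 and 9 bases with an evening element at 20 bases between them.

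Genes were ranked by log2 fold change where the higher mean reached 5 CPM and the lower mean 1 CPM, outside a list of 27 genes set aside with earlier results of these data known. That list held some immune and clock genes and other genes already seen to change, so the ranking is not of all genes. Of the listed genes, AT4G12500 at a log2 fold change of 7.15 and FRK1 at 5.86 would have stood among the 10 largest rises, and GBSS1 at -5.32 and LHY at -5.19 among the 10 largest falls. Within the same limits and with the list put back, AT4G12500 had the largest rise and GBSS1 and LHY the 2 largest falls. The 10 rises that follow held chaperone, clock and photosynthesis genes beside receptor and peroxidase genes. AT5G23240, which encodes a J-domain co-chaperone, had 201, 213 and 209.5 CPM in flg22 seedlings, against 2.31, 1.31 and 2.01 CPM in mock seedlings (log2 fold change 6.80, SE 0.18, adjusted p = 4.33e-11). JMJD5, a jumonji-domain gene with an evening phase in the clock, had 130.4, 152 and 141 CPM in flg22 seedlings, against 3.25, 2.95 and 4.83 CPM in mock seedlings (log2 fold change 5.27, SE 0.15, adjusted p = 4.58e-11). RbcX1, a chaperone of Rubisco assembly, had 72.05, 77.7 and 64.1 CPM in flg22 seedlings, against 1.41, 1.06 and 1.18 CPM in mock seedlings (log2 fold change 5.87, SE 0.12, adjusted p = 6.30e-12). In these 3 genes every flg22 library lay more than 10 times above every mock library. The other rises among the 10 were AT4G12490 of the lipid-transfer superfamily, CRK13 of the cysteine-rich receptor kinases, AT3G22235 with a cysteine-rich transmembrane module, AT1G07050 with a CCT motif, the peroxidase gene AT5G39580, the DnaJ-domain gene AT1G56300 and the dormancy-associated gene AT2G33830. Their log2 fold changes ran from 4.99 to 6.39. Without mock replicate 3 the values for AT4G12490 and AT1G56300 were 7.01 and 5.94, against 6.39 and 5.16 with all libraries.

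Of the 10 falls ranked outside that list, IRT1, the iron importer of root epidermis, had 1.41, 2.57 and 1.25 CPM in flg22 seedlings, against 69.8, 68.1 and 41.9 CPM in mock seedlings (log2 fold change -5.11, SE 0.64, adjusted p = 1.50e-05). LBD41, a LOB-domain factor gene, had 7.51, 4.92 and 10.05 CPM in flg22 seedlings, against 213, 211 and 211 CPM in mock seedlings (log2 fold change -4.81, SE 0.18, adjusted p = 3.69e-10). ELIP2, a light stress protein of the chlorophyll-binding superfamily, had 30.6, 18.3 and 31.1 CPM in flg22 seedlings, against 679, 548 and 624 CPM in mock seedlings (log2 fold change -4.53, SE 0.25, adjusted p = 7.66e-09). None of these 3 genes had overlapping groups. The other falls were the clock gene CCA1, which was not in the list, BETA-OHASE 2 of carotenoid synthesis, the HSP20-like gene AT5G51440, LNK3, LEA3, the plastid glucose 6-phosphate translocator gene GPT2, and FTM1, of the stearoyl-ACP desaturase family. They lay between -4.48 and -4.81. FTM1 was high in flg22 replicate 3, with 4.79, 1.77 and 18.1 CPM in flg22 seedlings against 169, 161 and 222 CPM in mock seedlings, and was at -5.79 without that library.

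**Figure D2:**
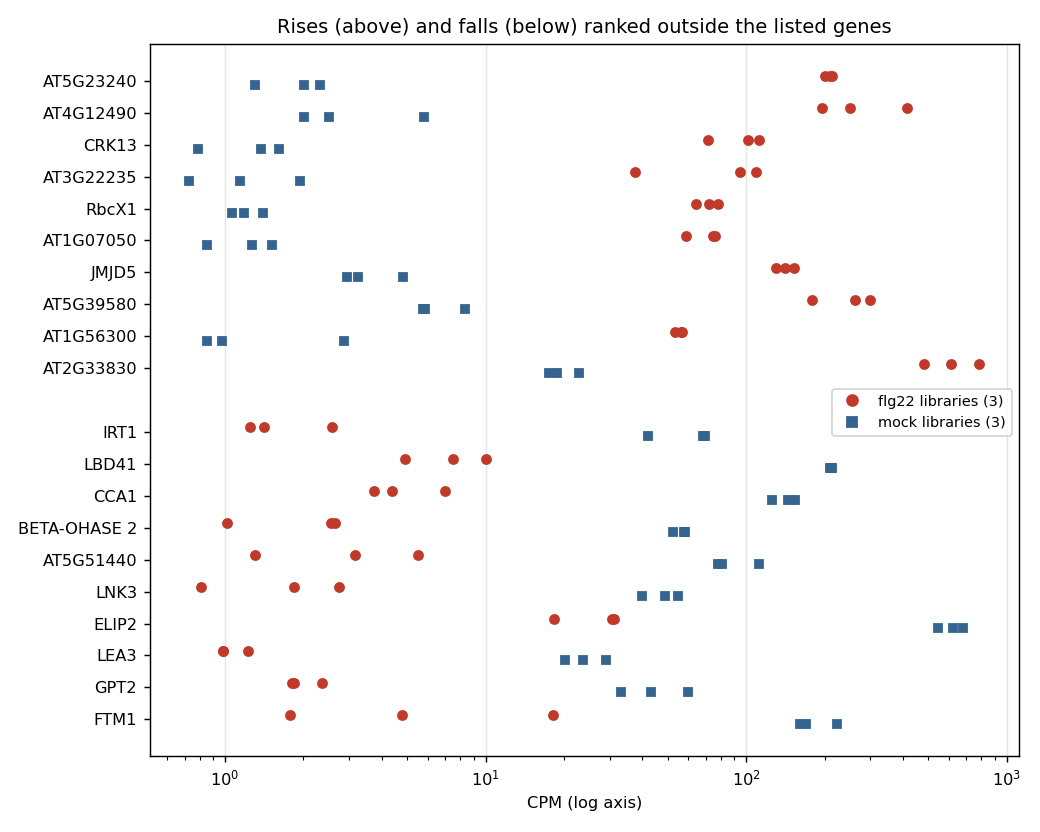
CPM on a log axis of the 10 rises (upper block) and the 10 falls (lower block) ranked first by log2 fold change outside the 27 listed genes, with 1 red circle per flg22 library and 1 blue square per mock library. The flg22 and mock libraries do not overlap for any of the 20 genes, which was a condition of the choice.

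Differences in mean CPM between the groups were also ranked among called genes. CPM is not per length, so this ranking favours long transcripts and does not compare levels between genes. The RNA-binding protein gene GRP7 had 2251, 2487 and 2455 CPM in flg22 seedlings, against 247, 302 and 396 CPM in mock seedlings (log2 fold change 2.93, SE 0.13, adjusted p = 1.83e-09). CA1, a chloroplast carbonic anhydrase gene, had 3596, 3804 and 3538 CPM in flg22 seedlings, against 1638, 1651 and 1684 CPM in mock seedlings (log2 fold change 1.14, SE 0.05, adjusted p = 1.77e-09). THI1, which encodes the enzyme of thiazole synthesis for thiamine, had 3311 ± 189.6 CPM with flg22 and 1675 ± 145 CPM in mock. The Rubisco small subunit genes RBCS2B and RBCS3B, which are near-identical tandem copies and so uncertain one by one, rose by log2 fold changes of 0.68 and 0.42. The peroxidase gene AT5G64120 completed the 6 largest gains in CPM. Of the 6 largest losses in CPM, 5 were antenna genes of the photosystems, and the other was HSC70-1, a cytosolic chaperone gene, with 1708, 1565 and 1606 CPM in flg22 seedlings, against 3696, 3643 and 3672 CPM in mock seedlings.

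Most members of several classes of cell-surface receptors rose. Cysteine-rich receptor-like kinases had 26 of 32 members higher and 2 lower, with 22 rises of at least 2-fold, against 29.8% and 9.26% of all genes, and a median log2 fold change of 1.56. CRK18 had 164, 147 and 135 CPM in flg22 seedlings, against 27.5, 23.6 and 31.9 CPM in mock seedlings (log2 fold change 2.43, SE 0.12, adjusted p = 3.18e-09). CRK19 had 120.5, 106 and 89.9 CPM in flg22 seedlings, against 19.4, 18.2 and 21.5 CPM in mock seedlings (log2 fold change 2.42, SE 0.11, adjusted p = 2.25e-09). Both were higher in every flg22 library than in any mock library, whereas CRK42 fell by 1.27 on the log2 scale, with 7.19 ± 1.28 CPM with flg22 and 17.4 ± 1.701 CPM in mock. Secreted proteins that carry the same DUF26 domain without a kinase had 9 of 12 members higher, 1 lower and a median of 2.06, for example AT3G22060 at 144 ± 26.2 CPM with flg22 and 26.03 ± 6.17 CPM in mock. Many of these genes are tandem copies, so that values of single members are uncertain. W-boxes stood in 19 of 32 promoters of the kinases.

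Wall-associated kinases, which bind pectin, had 14 of 17 members higher and none called lower, with 11 rises of at least 2-fold and a median of 1.58. WAKL6, with W-boxes and an evening element in its promoter, had 31.4, 29.5 and 23.01 CPM in flg22 seedlings, against 4.42, 4.65 and 4.44 CPM in mock seedlings (log2 fold change 2.63, SE 0.14, adjusted p = 7.30e-09). WAK2 had 43.02, 30.02 and 37.7 CPM in flg22 seedlings, against 14.1, 11.98 and 10.99 CPM in mock seedlings (log2 fold change 1.58, SE 0.14, adjusted p = 5.87e-07). Receptor-like proteins, which have extracellular leucine-rich repeats and no kinase, had 28 of 44 members higher and 1 lower, 20 of the rises at least 2-fold. RLP54 was at 45.5 ± 3.57 CPM with flg22 and 14.2 ± 1.31 CPM in mock, RLP47 at 20.1 ± 1.22 CPM with flg22 and 4.94 ± 0.0765 CPM in mock and RLP31 at 27.2 ± 1.62 CPM with flg22 and 7.04 ± 0.802 CPM in mock. The member called lower was RLP51, which fell by 0.89 on the log2 scale. Lectin receptor kinases followed with 17 of 31 higher and 2 lower for the L-type and 12 of 21 higher and 3 lower for the S-locus type. AT1G61360 of the S-locus type was at 45.8 ± 4.59 CPM with flg22 and 13.1 ± 0.233 CPM in mock.

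Receptor kinases with leucine-rich repeats, the large family that holds FLS2, were mixed. Of 153 members 58 were higher and 38 lower, around a median of 0.09, and 26 rises and 7 falls reached 2-fold. The rises included IOS1 and its neighbours AT1G51790 and AT1G51820. AT1G51820 had 74.6, 58.2 and 52.4 CPM in flg22 seedlings, against 4.82, 3.74 and 7.104 CPM in mock seedlings (log2 fold change 3.57, SE 0.20, adjusted p = 9.14e-09). AT3G03770 fell by 1.87 on the log2 scale, with 22.4 ± 4.204 CPM with flg22 and 82.2 ± 5.48 CPM in mock. Proteins with LysM domains, some of which are receptors that bind chitin and peptidoglycan, had 5 of 13 higher and 3 lower, around a median of -0.02. CERK1, the kinase of chitin perception, was at 47.7 ± 4.298 CPM with flg22 and 25.8 ± 0.628 CPM in mock, LYK3 at 73.8 ± 5.18 CPM with flg22 and 25.6 ± 2.198 CPM in mock and LYK4 at 14.01 ± 3.78 CPM with flg22 and 6.33 ± 0.445 CPM in mock. The members that fell were LYM3 at 13.9 ± 0.854 CPM with flg22 and 26.02 ± 4.696 CPM in mock, AT5G23130 at 6.13 ± 0.344 CPM with flg22 and 8.92 ± 0.163 CPM in mock and AT3G52790 at 0.739 ± 0.256 CPM with flg22 and 1.98 ± 0.382 CPM in mock, of which AT3G52790 fell by at least 2-fold. AT5G23130 and AT3G52790 were not called without the 3 libraries of highest organelle share, with adjusted edgeR p of 0.082 and 0.053. LYK5 and LYM2 were not called, with log2 differences of -0.14 and 0.12.

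Most intracellular receptors rose, the larger part by less than 2-fold. Of 80 receptors of the TIR-NBS-LRR class 67 were higher and 2 lower, 32 of the rises at least 2-fold, and the median was 0.85. The summed level of the class was 2546 ± 136 CPM with flg22 and 1427 ± 44.4 CPM in mock. RPP4, which recognises the oomycete Hyaloperonospora arabidopsidis, had 194, 203 and 179 CPM in flg22 seedlings, against 48.1, 43.3 and 40.9 CPM in mock seedlings (log2 fold change 2.12, SE 0.08, adjusted p = 4.95e-10). AT5G36930 had 51.1, 45.5 and 40.6 CPM in flg22 seedlings, against 14.03, 13.1 and 12.7 CPM in mock seedlings (log2 fold change 1.78, SE 0.09, adjusted p = 4.00e-09). The members called lower were AT4G19530, at 55.2 ± 9.77 CPM with flg22 and 83.6 ± 14.1 CPM in mock, and AT5G45210, at 2.71 ± 0.262 CPM with flg22 and 5.21 ± 0.574 CPM in mock. The CC-NBS-LRR class had 29 of 43 members higher and none called lower, with a median of 0.84. AT1G58602 of this class had 412, 343 and 365 CPM in flg22 seedlings, against 119, 122 and 114 CPM in mock seedlings (log2 fold change 1.66, SE 0.08, adjusted p = 2.07e-09). RPP8, another receptor of the same oomycete, was at 131 ± 5.66 CPM with flg22 and 64.8 ± 1.74 CPM in mock. W-boxes stood in 42 of 80 promoters of the TIR class and 27 of 43 of the CC class, and evening elements in 3 and 0. Receptor genes are often in clusters of related copies, where reads may be shared.

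**Figure D3:**
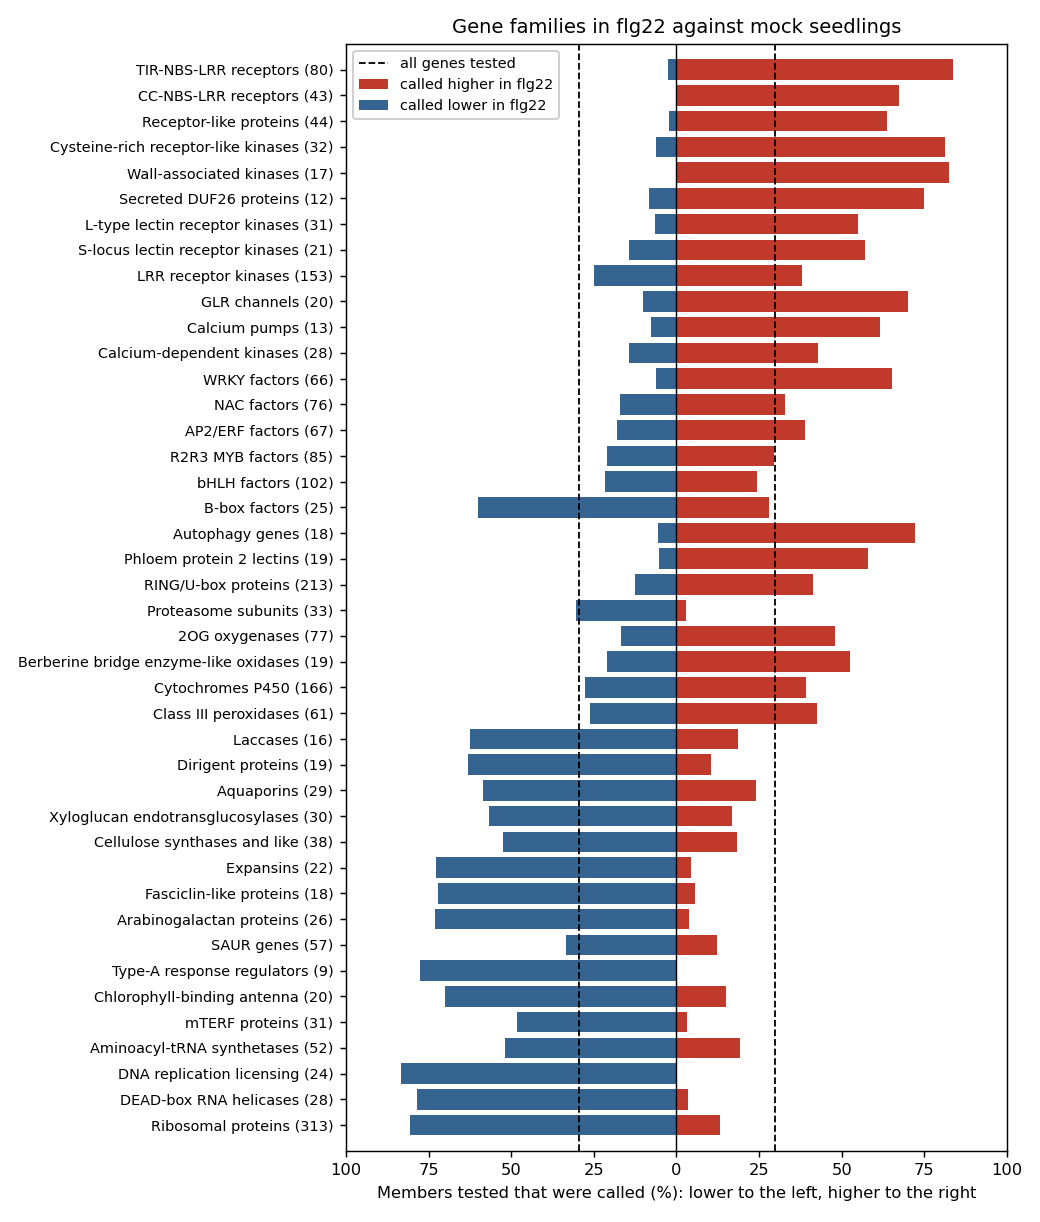
Share of tested members called higher (right, red) or lower (left, blue) with flg22 than in mock for 42 families, with the number tested in brackets and dashed lines at 29.8 and 29.4% for all genes. Of TIR-NBS-LRR receptors 67 of 80 were higher, and of ribosomal proteins 252 of 313 were lower.

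Calcium entry and removal differed by gene family, beside 29.8% higher and 29.4% lower over all genes. Glutamate receptor-like channels, which carry calcium in wound and immune signals, had 14 of 20 members higher and 2 lower, 11 of the rises at least 2-fold, with a median of 1.18. GLR3.5 had 34.2, 31.8 and 31.1 CPM in flg22 seedlings, against 6.59, 8.18 and 8.49 CPM in mock seedlings (log2 fold change 2.06, SE 0.10, adjusted p = 2.47e-09). GLR1.1 was at 32.3 ± 4.56 CPM with flg22 and 10.6 ± 1.66 CPM in mock, while GLUR2 was lower, at 2.42 ± 0.191 CPM with flg22 and 5.54 ± 1.52 CPM in mock. Calcium pumps had 8 of 13 members higher and 1 lower. ACA8 and ACA10, pumps of the plasma membrane, rose by log2 fold changes of 1.04 and 0.95, and ACA4 and ACA11 of the vacuole by 0.68 and 0.70. ACA10 had 165, 189 and 165 CPM in flg22 seedlings, against 93.3, 87.9 and 86.997 CPM in mock seedlings (log2 fold change 0.95, SE 0.07, adjusted p = 1.03e-07). ACA9, a pump known from pollen, was the member that fell, at 2.397 ± 0.319 CPM with flg22 and 7.304 ± 1.23 CPM in mock. Cyclic nucleotide-gated channels had 10 of 20 higher and 6 lower, a share of falls near that over all genes. CNGC3 and CNGC10 rose by log2 fold changes of 1.85 and 1.33. CNGC4 and its partner CNGC2, listed as DND1, which form a channel of immune calcium entry, fell by 0.66 and 0.42 on the log2 scale. Calcium-dependent kinases had 12 of 28 higher and 4 lower, CPK23 among the rises at 55.2 ± 2.57 CPM with flg22 and 25.9 ± 3.09 CPM in mock. Annexins, calcium-binding membrane proteins, had none of 5 higher and 4 lower, ANNAT4 at 4.51 ± 1.71 CPM with flg22 and 17.2 ± 4.33 CPM in mock and ANNAT2 at 39.4 ± 7.53 CPM with flg22 and 75.1 ± 12.6 CPM in mock.

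Most families of downstream kinases, membrane proteins and peptides named here had more members higher than lower, apart from RALF peptides. MAP kinases had 9 of 20 members higher and 3 lower. MPK7 had 31.97, 35.3 and 31.2 CPM in flg22 seedlings, against 6.43, 8.46 and 7.499 CPM in mock seedlings (log2 fold change 2.13, SE 0.10, adjusted p = 2.34e-09) and MPK2 was at 45.7 ± 2.28 CPM with flg22 and 20.8 ± 0.674 CPM in mock. MEKK3, a kinase of the same cluster as MEKK1 and MEKK2, was at 99.2 ± 9.41 CPM with flg22 and 25.7 ± 2.4999 CPM in mock. MLO proteins had 7 of 15 members higher and 3 lower, and the rises included MLO2, MLO6 and MLO12, the genes whose loss gives resistance to powdery mildew. MLO2 had 279, 253 and 217 CPM in flg22 seedlings, against 65.3, 60.9 and 67.6 CPM in mock seedlings (log2 fold change 1.95, SE 0.10, adjusted p = 5.90e-09). MLO12 had 196, 163 and 105 CPM in flg22 seedlings, against 16.3, 15.3 and 17.9 CPM in mock seedlings (log2 fold change 3.23, SE 0.21, adjusted p = 3.57e-08). Ankyrin repeat proteins had 31 of 59 higher and 9 lower, with ACD6, a regulator of salicylic acid signalling and cell death, at 108 ± 35.7 CPM with flg22 and 6.36 ± 1.44 CPM in mock. Proteins with a C1 domain had 36 of 118 higher and 10 lower, a share of rises near the 29.8% over all genes. AT2G27660 of this family was at 89.4 ± 15.2 CPM with flg22 and 11.9 ± 2.74 CPM in mock. PLAC8 proteins had 10 of 16 higher and 2 lower, with AT1G52200 at 140.3 ± 24.5 CPM with flg22 and 32.2 ± 0.894 CPM in mock. Precursors of phytosulfokine, a sulfated growth peptide, had 3 of 5 members higher and 1 lower. PSK4 was at 50.8 ± 11.6 CPM with flg22 and 17.5 ± 1.12 CPM in mock and PSK5 at 14.7 ± 2.96 CPM with flg22 and 5.29 ± 1.26 CPM in mock. RALF peptide genes had 1 of 11 higher and 5 lower.

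Transcription factor families split between rises and falls. WRKY factors had 43 of 66 members higher and 4 lower, 27 of the rises at least 2-fold. WRKY26 had 43.4, 44.7 and 33.1 CPM in flg22 seedlings, against 5.69, 7.12 and 9.604 CPM in mock seedlings (log2 fold change 2.43, SE 0.16, adjusted p = 3.54e-08), and WRKY3 was at 58.2 ± 4.23 CPM with flg22 and 26.6 ± 2.15 CPM in mock. NAC factors had 25 of 76 higher and 13 lower, near the shares over all genes for the rises. NAC047, a factor of leaf movement and ageing, had 67.3, 54.2 and 54.2 CPM in flg22 seedlings, against 5.46, 6.87 and 8.03 CPM in mock seedlings (log2 fold change 3.11, SE 0.14, adjusted p = 1.82e-09), while NAC044 was at 1.92 ± 0.203 CPM with flg22 and 15.96 ± 2.53 CPM in mock. AP2/ERF factors had 26 of 67 higher and 12 lower, among the rises DREB2C at 9.13 ± 2.25 CPM with flg22 and 0.7402 ± 0.143 CPM in mock. ERF71, a factor of the low-oxygen response, had 0.0328, 0.362 and 0.203 CPM in flg22 seedlings, against 6.66, 5.84 and 11.3 CPM in mock seedlings, with a log2 fold change of -5.32 that was -6.03 without flg22 replicate 2.

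MYB factors of the R2R3 class had 25 of 85 members higher and 18 lower. The share of rises was near the 29.8% over all genes, and that of falls, 21.2%, was below the 29.4% over all genes. Both directions occurred among regulators of glucosinolates. MYB51, an activator of indole glucosinolate synthesis, had 32.1, 36.1 and 26.4 CPM in flg22 seedlings, against 9.37, 8.73 and 8.32 CPM in mock seedlings (log2 fold change 1.84, SE 0.14, adjusted p = 1.69e-07), whereas MYB34, which acts in the same pathway, was at 15.9 ± 4.77 CPM with flg22 and 32.1 ± 3.73 CPM in mock. MYB29, an activator of aliphatic glucosinolate synthesis, had 0.394, 1.12 and 2.44 CPM in flg22 seedlings, against 20.8, 17.2 and 14.8 CPM in mock seedlings and fell by 3.74 on the log2 scale, with a log2 fold change of -4.56 without flg22 replicate 3. MYB12, an activator of flavonol synthesis, was at 23.9 ± 4.44 CPM with flg22 and 3.63 ± 0.173 CPM in mock. Heat shock factors had 5 of 11 members higher and 1 lower. HSFA8 and HSFA3 rose, at 13.7 ± 2.33 CPM with flg22 and 2.37 ± 1.06 CPM in mock and 10.05 ± 0.814 CPM with flg22 and 2.87 ± 0.646 CPM in mock, while HSFA2 fell to 0.725 CPM with flg22 against 19.2 CPM in mock.

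B-box factors, many of which act in light and flowering pathways and cycle daily, had 7 of 25 members higher and 15 lower, 6 and 11 of them by at least 2-fold. COL9 had 92.8, 104 and 92.5 CPM in flg22 seedlings, against 8.37, 8.12 and 9.47 CPM in mock seedlings (log2 fold change 3.48, SE 0.08, adjusted p = 1.96e-11). BBX8 was at 46.1 ± 3.92 CPM with flg22 and 6.21 ± 0.937 CPM in mock. On the other side COL2 had 10.4, 9.58 and 7.95 CPM in flg22 seedlings, against 65.2, 64.2 and 50.4 CPM in mock seedlings (log2 fold change -2.69, SE 0.13, adjusted p = 2.22e-09), and BBX14 was at 87.4 ± 10.5 CPM with flg22 and 303 ± 16.6 CPM in mock. Cycling DOF factors, repressors of flowering with a morning phase, were lower, CDF3 at 9.56 ± 1.59 CPM with flg22 and 30.9 ± 5.14 CPM in mock and CDF2 at 7.13 ± 1.74 CPM with flg22 and 17.4 ± 0.654 CPM in mock, while OBP2 of the same family was at 55.9 ± 3.002 CPM with flg22 and 21.8 ± 2.41 CPM in mock. DOF factors as a family had 7 of 27 members higher and 8 lower, near the shares over all genes. HY5, the bZIP factor of light growth, rose by a log2 fold change of 1.01. The bZIP family had 10 of 42 members higher and 10 lower, both below the shares over all genes. The part of clock phase in these values was not tested.

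Ubiquitin ligases and autophagy genes were more often higher than lower. RING and U-box proteins had 88 of 213 members higher and 27 lower, for example AT3G47160 at 63.8 ± 3.56 CPM with flg22 and 11.2 ± 0.619 CPM in mock and RING1, a ligase of programmed cell death, at 17.8 ± 2.83 CPM with flg22 and 3.46 ± 0.509 CPM in mock. Autophagy genes had 13 of 18 members higher and 1 lower, though 1 rise reached 2-fold, with a median of 0.46. ATG8E, the membrane-linked protein of autophagosomes, had 83.1, 95.99 and 75.1 CPM in flg22 seedlings, against 45.7, 44.4 and 40.9 CPM in mock seedlings (log2 fold change 0.96, SE 0.08, adjusted p = 4.89e-07). ATG13, of the initiating kinase complex, was at 41.8 ± 2.84 CPM with flg22 and 23.7 ± 1.203 CPM in mock, and ATG18B at 9.59 ± 0.135 CPM with flg22 and 22.04 ± 0.07298 CPM in mock was the member that fell. Proteasome subunits had 1 of 33 higher and 10 lower, a share of falls near the 29.4% over all genes, with no call of 2-fold and a median of -0.07, and with RPN5B at 20.7 ± 1.32 CPM with flg22 and 28.9 ± 1.44 CPM in mock and RPT4A at 49.5 ± 5.31 CPM with flg22 and 65.5 ± 2.16 CPM in mock. SNARE proteins had 15 of 33 higher and 3 lower. SYP122, a syntaxin of the plasma membrane, had 54.7, 48.1 and 36.8 CPM in flg22 seedlings, against 12.6, 8.52 and 12.1 CPM in mock seedlings (log2 fold change 2.08, SE 0.17, adjusted p = 2.20e-07). Among exocyst subunits of the EXO70 class, 6 of 15 were higher and 1 lower, EXO70E2 at 48.4 ± 11.8 CPM with flg22 and 15.3 ± 2.46 CPM in mock and EXO70B2 at 24.6 ± 3.19 CPM with flg22 and 9.82 ± 1.07 CPM in mock. Lectins of the phloem protein 2 type had 11 of 19 higher and 1 lower, PP2-A5 at 20.7 ± 5.73 CPM with flg22 and 4.92 ± 0.739 CPM in mock.

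Secreted and oxidising enzymes were mixed as families and large in a few members. Class III peroxidases had 26 of 61 members higher and 16 lower, and their summed level was 5774 ± 488 CPM with flg22 and 2693 ± 181 CPM in mock. AT2G37130 had 244, 268 and 206 CPM in flg22 seedlings, against 65.4, 71.4 and 83.1 CPM in mock seedlings (log2 fold change 1.71, SE 0.12, adjusted p = 7.41e-08). AT5G39580 had 299, 261 and 178 CPM in flg22 seedlings, against 8.33, 5.84 and 5.76 CPM in mock seedlings (log2 fold change 5.21, SE 0.20, adjusted p = 4.89e-10). GER3, a germin-like protein gene, had 979.9, 984 and 1021 CPM in flg22 seedlings, against 161, 146 and 185 CPM in mock seedlings (log2 fold change 2.60, SE 0.09, adjusted p = 1.79e-10). Chitinases had 10 of 20 members higher and 4 lower, among which AT2G43620 was at 414 ± 41.001 CPM with flg22 and 24.9 ± 14.7 CPM in mock, with a log2 fold change of 4.05 that was 4.66 without mock replicate 3. Defensin-like genes had 4 of 21 members higher and 7 lower, LCR69 at 372 ± 19.6 CPM with flg22 and 87.5 ± 7.48 CPM in mock and LCR68 at 96.7 ± 8.77 CPM with flg22 and 122 ± 8.61 CPM in mock. Lipid-transfer superfamily genes had 9 of 54 higher and 26 lower. EARLI1 of this superfamily was at 1278 ± 198 CPM with flg22 and 156 ± 35.7 CPM in mock, whereas AT5G48490 was at 3.92 ± 1.34 CPM with flg22 and 30.6 ± 1.12 CPM in mock.

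Several families of oxidising enzymes rose more often than they fell. Oxygenases dependent on 2-oxoglutarate had 37 of 77 members higher and 13 lower, AT5G43440 at 40.5 ± 0.789 CPM with flg22 and 2.83 ± 0.428 CPM in mock. Berberine bridge enzyme-like oxidases had 10 of 19 higher and 4 lower, AT1G30720 at 90.4 ± 23.6 CPM with flg22 and 17.6 ± 1.88 CPM in mock and AT4G20860 at 148 ± 31.2 CPM with flg22 and 48.1 ± 5.45 CPM in mock. Cytochromes P450 had 65 of 166 higher and 46 lower. CYP71B20 had 47.9, 45.1 and 44.2 CPM in flg22 seedlings, against 11.6, 12.1 and 12.5 CPM in mock seedlings (log2 fold change 1.92, SE 0.07, adjusted p = 3.12e-10). CYP76C1, an oxidase of monoterpenes, was at 64.5 ± 2.58 CPM with flg22 and 14.9 ± 2.51 CPM in mock. CYP707A3, an enzyme that breaks down abscisic acid, had 1.71, 1.99 and 1.996 CPM in flg22 seedlings, against 14.5, 12.3 and 12.99 CPM in mock seedlings (log2 fold change -2.80, SE 0.15, adjusted p = 6.29e-09). CYP707A2 of the same subfamily, named after its values were seen, moved the other way, at 38.8 ± 7.11 CPM with flg22 and 7.24 ± 0.858 CPM in mock. CYP79B3, at the entry of indole glucosinolate synthesis, was at 41.7 ± 5.97 CPM with flg22 and 92.1 ± 11.6 CPM in mock. Glutathione transferases had 19 of 53 higher and 17 lower, near even shares of 35.8 and 32.1%, against 29.8 and 29.4% of all genes. GSTF14 was at 94.2 ± 14.01 CPM with flg22 and 10.9 ± 2.16 CPM in mock and GSTF6 at 510.4 ± 91.2 CPM with flg22 and 195 ± 17.8 CPM in mock, while ERD9 had 11.9, 11.2 and 14.4 CPM in flg22 seedlings, against 206, 166 and 203 CPM in mock seedlings (log2 fold change -3.94, SE 0.12, adjusted p = 1.05e-10). Beta-glucosidases, which are not oxidising enzymes, had 12 of 32 members higher and 11 lower, with log2 fold changes from -3.6 to 2.4. Among the rises, PEN2, an atypical myrosinase of antifungal defence, was at 246 ± 16.3 CPM with flg22 and 89.2 ± 8.58 CPM in mock, and BGLU44 was at 677 ± 54.1 CPM with flg22 and 127 ± 28.5 CPM in mock.

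Most laccases and dirigent proteins, families tied to lignin, fell. Laccases, which couple lignin monomers, had 3 of 16 members higher and 10 lower, LAC11 at 6.93 ± 2.57 CPM with flg22 and 18.7 ± 2.47 CPM in mock, LAC17 at 5.13 ± 0.334 CPM with flg22 and 12.6 ± 2.48 CPM in mock and LAC4, listed as IRX12, at 10.5 ± 0.558 CPM with flg22 and 19.8 ± 2.101 CPM in mock. LAC7 was an exception, at 20.1 ± 1.28 CPM with flg22 and 9.49 ± 0.871 CPM in mock. Dirigent proteins, which steer the coupling of phenolic radicals, had 2 of 19 higher and 12 lower, with AT1G55210 at 30.1, 25.4 and 37.96 CPM in flg22 seedlings, against 82.6, 71.3 and 86.6 CPM in mock seedlings (log2 fold change -1.36, SE 0.12, adjusted p = 5.44e-07). Terpene synthases had 2 of 26 higher and 11 lower.

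Transporters of sugars, nitrate and defence compounds held large rises. PEN3, an exporter of indole compounds, had 1289, 1235 and 1131 CPM in flg22 seedlings, against 223, 212 and 263 CPM in mock seedlings. Its family of ABCG transporters had 11 of 33 members higher, a share near the 29.8% over all genes, and 6 lower. STP1 and STP4, importers of hexoses, had 379 and 229.8 CPM with flg22, against 122 and 64.8 CPM in mock, in a family with 4 of 10 tested genes higher and 1 lower. STP4 had 242, 247 and 199.7 CPM in flg22 seedlings, against 64.9, 59.1 and 70.5 CPM in mock seedlings (log2 fold change 1.83, SE 0.09, adjusted p = 4.70e-09). SWEET12, an exporter of sucrose, had 104, 105 and 89.7 CPM in flg22 seedlings, against 12.4, 12.9 and 14.4 CPM in mock seedlings (log2 fold change 2.91, SE 0.11, adjusted p = 5.13e-10). The SWEET family was divided, with 4 of 10 tested genes higher and 5 lower, and log2 fold changes from -4.19 to 2.91. Nitrate and peptide transporters had 14 of 29 members higher and 5 lower, against 29.8 and 29.4% of all genes. NRT1.7, which moves nitrate out of old leaves, was at 132 ± 5.45 CPM with flg22 and 40.8 ± 7.88 CPM in mock, and PTR3 at 41.7 ± 4.998 CPM with flg22 and 2.27 ± 0.894 CPM in mock, while AT3G21670 was at 6.35 ± 0.917 CPM with flg22 and 72.5 ± 3.32 CPM in mock. Cation/H+ exchangers had 3 of 5 tested members higher and none called lower, with CHX16 at 79.5 ± 16.6 CPM with flg22 and 9.22 ± 1.85 CPM in mock and CHX17 at 43.8 ± 12.9 CPM with flg22 and 8.07 ± 0.809 CPM in mock.

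Aquaporins had 7 of 29 members higher and 17 lower. Their summed level was 3620.1 ± 285 CPM with flg22 and 6374 ± 85.2 CPM in mock. PIP2A, a water channel of the plasma membrane, had 278, 341 and 278 CPM in flg22 seedlings, against 1168, 1072 and 1096 CPM in mock seedlings (log2 fold change -1.90, SE 0.08, adjusted p = 1.07e-09). RD28, another plasma membrane channel, had 23.5, 27.3 and 24.5 CPM in flg22 seedlings, against 131, 106 and 119 CPM in mock seedlings (log2 fold change -2.24, SE 0.09, adjusted p = 6.64e-10). Both were lower in every flg22 library than in any mock library. NIP5;1, a boric acid channel, moved the other way, at 80.7 ± 6.67 CPM with flg22 and 27.7 ± 3.71 CPM in mock. Metal transporters of the ZIP family were divided, with 5 of 12 higher and 3 lower. ZIP5 rose, at 41.9 ± 7.12 CPM with flg22 and 5.07 ± 0.879 CPM in mock, and IRT3 was at 32.5 ± 4.24 CPM with flg22 and 14.5 ± 2.06 CPM in mock, beside the fall of IRT1. Plastid phosphate carrier PHT2;1 was at 128 ± 6.22 CPM with flg22 and 402 ± 25.7 CPM in mock, while PHT1;4, a root importer, was at 105 ± 24.1 CPM with flg22 and 38.3 ± 10.7 CPM in mock. Root markers were lower with flg22 in 7 of 9 cases, 1 was higher and 1 not called, and their summed level was 1438, 1574 and 1811 CPM with flg22 against 2082, 1954 and 2266 CPM in mock. Their part in the fall of genes used in roots was not tested. Other marker lists moved less, with 1 of 5 guard cell markers higher and none called lower by edgeR or DESeq2, although 1 was lower at an unadjusted edgeR p under 0.05, and none of 6 leaf epidermis and trichome markers called higher and 2 lower.

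Genes of the growing cell wall fell as families. Arabinogalactan proteins, sugar-rich proteins of the wall and membrane, had 1 of 26 members higher and 19 lower, with a median of -1.03. AGP12 had 42.5, 43.3 and 43.6 CPM in flg22 seedlings, against 143, 138 and 139.95 CPM in mock seedlings (log2 fold change -1.70, SE 0.06, adjusted p = 1.79e-10). AGP15 was at 158 ± 5.54 CPM with flg22 and 311 ± 10.6 CPM in mock. Fasciclin-like proteins had 1 of 18 higher and 13 lower, with FLA9 at 123 ± 11.7 CPM with flg22 and 249.6 ± 3.201 CPM in mock and FLA13, the member that rose, at 295 ± 49.7 CPM with flg22 and 187 ± 11.9 CPM in mock. Expansins, which loosen walls, had 1 of 22 higher and 16 lower, with a median of -0.91. EXPA6 was at 53.5 ± 3.49 CPM with flg22 and 86.7 ± 3.71 CPM in mock, EXPA17 at 0.7196 ± 0.0981 CPM with flg22 and 11.4 ± 1.23 CPM in mock and EXLB1, the exception, at 21.6 ± 2.45 CPM with flg22 and 7.12 ± 0.946 CPM in mock.

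Families of enzymes that build and remodel wall sugars differed. Xyloglucan endotransglucosylases had 5 of 30 members higher and 17 lower. XTH31 had 40.7, 45.4 and 63.3 CPM in flg22 seedlings, against 223, 238 and 234 CPM in mock seedlings (log2 fold change -2.22, SE 0.13, adjusted p = 1.37e-08). XTH24 moved the other way, with 578, 714 and 429 CPM in flg22 seedlings, against 84.7, 65.3 and 88.3 CPM in mock seedlings (log2 fold change 2.85, SE 0.16, adjusted p = 1.06e-08). Cellulose synthases and related enzymes had 7 of 38 higher and 20 lower. CESA5 of the primary wall was at 91.7 ± 3.09 CPM with flg22 and 179.7 ± 18.7 CPM in mock, IRX3 of the secondary wall at 8.56 ± 0.604 CPM with flg22 and 20.2 ± 1.18 CPM in mock and ATCSLA09, a glucomannan synthase, at 23.3 ± 4.98 CPM with flg22 and 75.6 ± 4.696 CPM in mock, whereas CSLE1 was at 201 ± 7.48 CPM with flg22 and 39.9 ± 4.32 CPM in mock. Pectin lyase-like proteins had 7 of 55 higher and 27 lower, and trichome birefringence-like proteins, which acetylate wall sugars, 3 of 41 higher and 19 lower. Pectin methylesterases and their inhibitors had 16 of 55 higher, a share near that over all genes, and 20 lower, 10 each way by at least 2-fold. Their summed level was 1511 ± 14.8 CPM with flg22 and 1082 ± 56.5 CPM in mock. AT2G26440 of this group was at 108 ± 9.55 CPM with flg22 and 16.1 ± 2.81 CPM in mock and AT1G23205 at 9.67 ± 1.51 CPM with flg22 and 36.2 ± 4.595 CPM in mock. Vascular markers, IRX3 among them, had 1 of 6 higher and 2 lower, with a summed level of 301, 279 and 283 CPM with flg22 against 235, 236 and 218 CPM in mock, and their part in these falls was not tested. Extensins and callose synthases were mixed. EXT4, an extensin, had 2069.8, 1421 and 1423 CPM in flg22 seedlings, against 360.2, 289.7 and 443 CPM in mock seedlings (log2 fold change 2.17, SE 0.17, adjusted p = 1.43e-07), and CALS1, a callose synthase, was at 177 ± 14.1 CPM with flg22 and 88.1 ± 2.62 CPM in mock in a family with 5 of 13 higher and 4 lower.

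Hormone families were mixed, apart from cytokinin response genes, which fell. Over all genes, 29.8% were higher and 29.4% lower. Type-A response regulators, early targets of cytokinin, had none of 9 members higher and 7 lower, with a median of -0.58. ARR9 had 14.5, 13.2 and 14.8 CPM in flg22 seedlings, against 46.9, 42.6 and 36.8 CPM in mock seedlings (log2 fold change -1.57, SE 0.13, adjusted p = 2.80e-07). RR5 and ARR6 were at 5.61 ± 0.7898 CPM with flg22 and 11.8 ± 0.933 CPM in mock and at 6.43 ± 1.64 CPM with flg22 and 13.7 ± 3.37 CPM in mock, and ARR7 and RR16 were not called, although ARR7 passed at -0.61 without flg22 replicate 3 and at -0.41 with the replicate number as a block. SAUR genes, early targets of auxin, had 7 of 57 higher and 19 lower, with a share of falls near that over all genes. AT1G72430 of this family had 42.4, 50.998 and 44.7 CPM in flg22 seedlings, against 208, 198 and 198 CPM in mock seedlings. SAUR36 moved the other way, at 18.6 ± 2.35 CPM with flg22 and 8.08 ± 0.558 CPM in mock. Aux/IAA genes had 8 of 24 higher and 6 lower, near the shares over all genes. JAZ repressors had 4 of 9 higher and 5 lower, and PYL receptors of abscisic acid 5 of 10 higher and 2 lower. PYL6 was at 68.2 ± 5.79 CPM with flg22 and 25.2 ± 0.847 CPM in mock and PYL2 at 2.55 ± 0.6804 CPM with flg22 and 9.72 ± 0.316 CPM in mock. GA3OX1, which makes active gibberellin, fell by 1.17 on the log2 scale, while GA2OX6, which inactivates it, was at 11.004 ± 0.934 CPM with flg22 and 3.74 ± 0.478 CPM in mock. PBS3, an enzyme of salicylic acid synthesis in the GH3 family, had 27.1, 25.5 and 8.796 CPM in flg22 seedlings, against 0.134, 0.547 and 0.559 CPM in mock seedlings (log2 fold change 5.60, SE 0.51, adjusted p = 7.34e-07).

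Most genes of the protein synthesis machinery examined fell, apart from some of the plastid. Of 313 genes matched as ribosomal proteins or their families, whose descriptions name no organelle, 252 were lower and 41 higher, and 123 of the falls reached 2-fold, against 29.4% and 9.71% of all genes. Their median log2 fold change was -0.90, and their summed level was 38954 ± 1626 CPM with flg22 and 63466 ± 1553 CPM in mock. AT2G44860 had 29.8, 30.7 and 30.9 CPM in flg22 seedlings, against 99.05, 98.2 and 92.4 CPM in mock seedlings (log2 fold change -1.66, SE 0.06, adjusted p = 1.99e-10). AT5G20160 had 43.2, 40.3 and 41.8 CPM in flg22 seedlings, against 156, 152 and 143 CPM in mock seedlings (log2 fold change -1.85, SE 0.07, adjusted p = 3.81e-10). A match by symbol and description does not show that a member, these examples included, is part of the ribosome itself. Some of the members that rose belong to the plastid ribosome despite their descriptions, such as RPL12-A at 396 ± 7.85 CPM with flg22 and 223 ± 2.97 CPM in mock and PSRP3/1 at 271 ± 0.803 CPM with flg22 and 153 ± 4.41 CPM in mock. DEAD-box RNA helicases, many of which act in ribosome assembly, had 1 of 28 higher and 22 lower, with 12 falls of at least 2-fold. STRS1 had 86.7, 75.8 and 82.3 CPM in flg22 seedlings, against 251, 251 and 229 CPM in mock seedlings (log2 fold change -1.58, SE 0.07, adjusted p = 1.20e-09), and AT4G16630 was at 31.6 ± 3.53 CPM with flg22 and 145 ± 5.996 CPM in mock. Aminoacyl-tRNA synthetases had 10 of 52 higher and 27 lower, ATKRS-1 for lysine at 139 ± 12.1 CPM with flg22 and 331 ± 19.1 CPM in mock.

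Genes that license and carry out DNA replication had none of 24 members higher and 20 lower, with a median of -0.86. PRL, the MCM7 subunit of the replicative helicase, had 30.3, 26.3 and 33.9 CPM in flg22 seedlings, against 65.4, 69.4 and 60.7 CPM in mock seedlings (log2 fold change -1.11, SE 0.11, adjusted p = 1.21e-06). PCNA2, the sliding clamp, was at 15.96 ± 2.29 CPM with flg22 and 33.6 ± 1.74 CPM in mock and ORC1B of the origin recognition complex at 7.78 ± 0.914 CPM with flg22 and 18.7 ± 1.39 CPM in mock. Other genes of dividing cells did not move as a block. Histones had 8 of 44 higher and 8 lower, and cyclins 4 of 28 higher and 9 lower, with CYCD2;1 at 22.99 ± 0.908 CPM with flg22 and 39.4 ± 3.05 CPM in mock. The share of dividing cells was not measured.

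**Figure D4:**
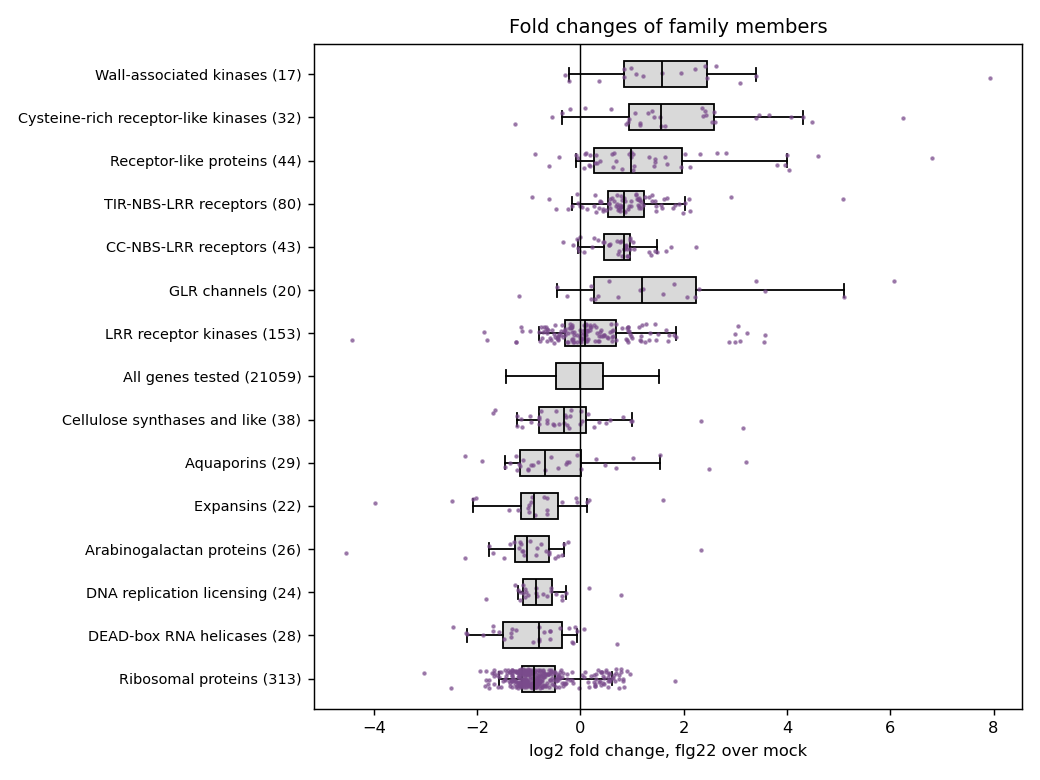
Log2 fold change of flg22 over mock for members of 14 families and for all genes tested, as boxes from the first to the third quartile with the median as a line, whiskers from the 5th to the 95th percentile, and 1 point per member. From top to bottom the boxes run from wall-associated kinases, with a median of 1.58, to ribosomal proteins, with a median of -0.90. The lowest median plotted was -1.03, in arabinogalactan proteins.

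In the plastid, most antenna genes fell, while the wider set of photosystem subunits went both ways. Chlorophyll-binding antenna genes had 3 of 20 members higher and 14 lower, with a summed level of 19788 ± 2443 CPM with flg22 and 41106 ± 2363 CPM in mock. CAB2, an antenna gene of photosystem II with near-identical neighbours, had 708, 553 and 325 CPM in flg22 seedlings, against 4468, 4269 and 3744 CPM in mock seedlings. LHCB6 had 495, 483 and 415 CPM in flg22 seedlings, against 1366, 1396 and 1238 CPM in mock seedlings (log2 fold change -1.52, SE 0.10, adjusted p = 2.48e-08). The members that rose were LHCB4.3, Lhca5 and Lhca6, with LHCB4.3 at 158 ± 11.2 CPM with flg22 and 88.8 ± 8.39 CPM in mock. The call of Lhca6, at a log2 fold change of 0.23, was lost without flg22 replicate 2, at 0.18, and without mock replicate 3, at 0.19. Photosystem subunits had 12 of 38 higher and 13 lower, shares of 31.6 and 34.2% that were near those over all genes. This set overlaps the antenna set, since the lowest log2 fold change of both was the same value of -3.50. Shared members were not taken out of these counts. PSAH2 and PSAD-2 of photosystem I fell by 1.28 and 1.41, while PSB29 and PSBR of photosystem II rose by 0.99 and 0.57, all on the log2 scale. Antenna genes are known to cycle daily, and the part of clock phase in their fall was not tested. Factors of the mTERF family, which act on organelle transcripts, had 1 of 31 higher and 15 lower. Genes encoded in organelles or without a match had 1 of 106 higher and 4 lower.

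Chaperones divided by class. Small heat shock and related proteins had 7 of 34 members higher and 15 lower, 14 of the falls at least 2-fold. AT5G51440 had 5.51, 1.302 and 3.15 CPM in flg22 seedlings, against 80.8, 78.2 and 112 CPM in mock seedlings (log2 fold change -4.75, SE 0.31, adjusted p = 3.72e-08). HSP101, which frees aggregated proteins, was at 15.3 ± 0.717 CPM with flg22 and 42.6 ± 4.01 CPM in mock. AT5G02480, of the HSP20-like superfamily, was an exception, at 551 ± 25.8 CPM with flg22 and 163 ± 10.4 CPM in mock. DnaJ proteins had 35 of 117 higher and 32 lower, close to the shares over all genes. J2 and J3, cytosolic partners of HSP70, fell to 77.5 and 239.6 CPM with flg22 against 175 and 534 CPM in mock, whereas J8 of the chloroplast was at 545 ± 95.96 CPM with flg22 and 146 ± 5.25 CPM in mock.

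RNAs that code for no protein were called at shares that differed by class, and over all genes tested 29.8% were higher and 29.4% lower. Of 72 small nucleolar RNA genes tested, which guide the modification of ribosomal RNA, none was called higher and 28 were lower, 21 by at least 2-fold. Of the 51 that overlap no coding gene, 24 were lower. Long non-coding RNAs had 63 of 279 higher and 16 lower, shares of 22.6 and 5.73% that are both below those over all genes, but 189 of them overlap a coding gene, and the labels do not say whether counting used strand. Of the 90 that stand free, 26 were higher, a share of 28.9% near that over all genes, and 6 lower. AT4G36648, annotated as other RNA, had 181, 174 and 173 CPM in flg22 seedlings, against 71.3, 71.8 and 78.2 CPM in mock seedlings (log2 fold change 1.26, SE 0.07, adjusted p = 6.90e-09). MicroRNA precursors had 7 of 39 higher and 8 lower, both below the shares over all genes. Among the falls, MIR5026, MIR850 and MIR863 overlap the non-coding gene AT4G13495 on the same strand and need not be separate changes. AT4G13495 was at 99.2 ± 9.09 CPM with flg22 and 254 ± 3.52 CPM in mock. The MIR163 precursor was at 12.6 ± 1.28 CPM with flg22 and 4.39 ± 0.5805 CPM in mock. TAS3, the source of small RNAs against auxin response factors, had 5.77, 5.498 and 5.55 CPM in flg22 seedlings, against 16.2, 13.7 and 14.2 CPM in mock seedlings (log2 fold change -1.39, SE 0.12, adjusted p = 4.53e-07). Genes whose product is listed as hypothetical made up 13.05% of protein-coding rises of at least 2-fold and 8.85% of such falls, against 10.2% of all protein-coding genes tested.

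Some neighbouring genes on the chromosomes changed in 1 direction. Runs of at least 4 tested neighbours that all changed by at least 2-fold in 1 direction numbered 21 among the rises, with 96 genes, and 8 among the falls, with 35 genes. Overlapping genes were counted as neighbours, and a run of falls on chromosome 4 from 7842967 to 7846899 consists of AT4G13495 and the microRNA precursors that overlap it. The genes of this paragraph were named after their values were seen, and in runs of copies shared reads cannot be told apart from joint change. On chromosome 3 from 9573263 to 9599988, 6 cytochrome P450 genes of the CYP71B group rose, CYP71B23 at 76.9 ± 17.1 CPM with flg22 and 12.4 ± 3.75 CPM in mock and CYP71B24 at 37.02 ± 1.83 CPM with flg22 and 8.21 ± 2.82 CPM in mock. On chromosome 4 from 7401087 to 7414955 the lipid-transfer genes AZI1, a gene of systemic immunity, EARLI1, AT4G12490 and AT4G12500 rose. AZI1 had 1135, 1092 and 796 CPM in flg22 seedlings, against 196, 219 and 208 CPM in mock seedlings (log2 fold change 2.28, SE 0.12, adjusted p = 5.48e-09). On chromosome 1 from 7423704 to 7448483 WAK1 to WAK5 rose, and on chromosome 3 from 18727666 to 18744174 HR2, HR3 and HR4, homologs of the mildew resistance gene RPW8, rose with SNRK2.2. HR4 had 546, 486 and 492 CPM in flg22 seedlings, against 105, 111 and 84.2 CPM in mock seedlings (log2 fold change 2.34, SE 0.12, adjusted p = 6.29e-09). Other runs held genes of different families. On chromosome 5 from 19428888 to 19461706, 4 genes of the thalianol cluster fell, in which the enzymes of 1 triterpene pathway lie side by side. THAS1, the thalianol synthase, had 0.197, 0.506 and 1.69 CPM in flg22 seedlings, against 8.54, 13.02 and 16.6 CPM in mock seedlings (log2 fold change -3.99, SE 0.63, adjusted p = 0.0001103). CYP705A5, a cytochrome P450 of the same pathway, was at 3.76 ± 2.43 CPM with flg22 and 21.2 ± 9.21 CPM in mock. Without flg22 replicate 3 the log2 fold changes were -5.19 for THAS1 and -3.17 for CYP705A5, against -3.99 and -2.49 with all libraries. A run on chromosome 3 from 7885637 to 7905576 held PMH1, a mitochondrial RNA helicase gene, at 37.1 ± 3.05 CPM with flg22 and 143 ± 2.84 CPM in mock, and NRPB5, a subunit of RNA polymerase II, at 46.1 ± 1.21 CPM with flg22 and 101 ± 6.54 CPM in mock.

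Promoter motifs were counted in 20442 protein-coding genes tested, from 250 bases before to 50 bases after the gene start, on both strands. W-boxes stood in 32.9% of all promoters, in 50.2% of genes 8-fold or more higher, in 48.7% of those 4- to 8-fold higher and in 39.2% of those 2- to 4-fold higher. The 3 classes of falls from smallest to largest held them in 29.5, 23.0 and 27.5% of cases. Evening elements stood in 2.98% of all promoters, in 10.8, 11.1 and 7.11% of the 3 classes of rises from largest to smallest, and in 1.82% of genes 2- to 4-fold lower. Both motifs were commoner in each class of rises of at least 2-fold than over all promoters. Of genes with both motifs, 31.7% of 186 were higher by at least 2-fold, against 23.1% with the evening element alone, 11.3% with the W-box alone and 7.39% with neither.

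Among falls, the share of promoters with a motif differed by size of fall. G-boxes stood in 9.12, 11.5 and 20.4% of promoters of genes 2- to 4-fold, 4- to 8-fold and 8-fold or more lower, against 8.62% of all promoters, and in 9 of 12 morning clock genes. Telo-boxes stood in 14.7, 10.8 and 4.93% of the same 3 classes of falls, so that the largest falls lay below the 5.38% of all promoters. In genes 2- to 4-fold higher the share was 2.13%. Site II motifs stood in 24.6% of genes lower by under 2-fold and in 23.6, 12.3 and 12.7% of the 3 classes, against 18.1% of all promoters, so both classes of falls of 4-fold or more lay below all promoters. Of genes with both, 63.2% of 361 were lower, against 45.5% with the telo-box alone, 36.1% with site II alone and 27.2% with neither. With ribosomal protein genes left out, 54.4% of 285 genes with both were lower, against 26.9% with neither. Promoters of the extreme classes were alike in base composition, with 31.4% G and C in genes 8-fold or more higher, 32.8% in genes 8-fold or more lower and 32.0% over all. A motif match is a description of letters and not a measured binding site.

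**Figure D5:**
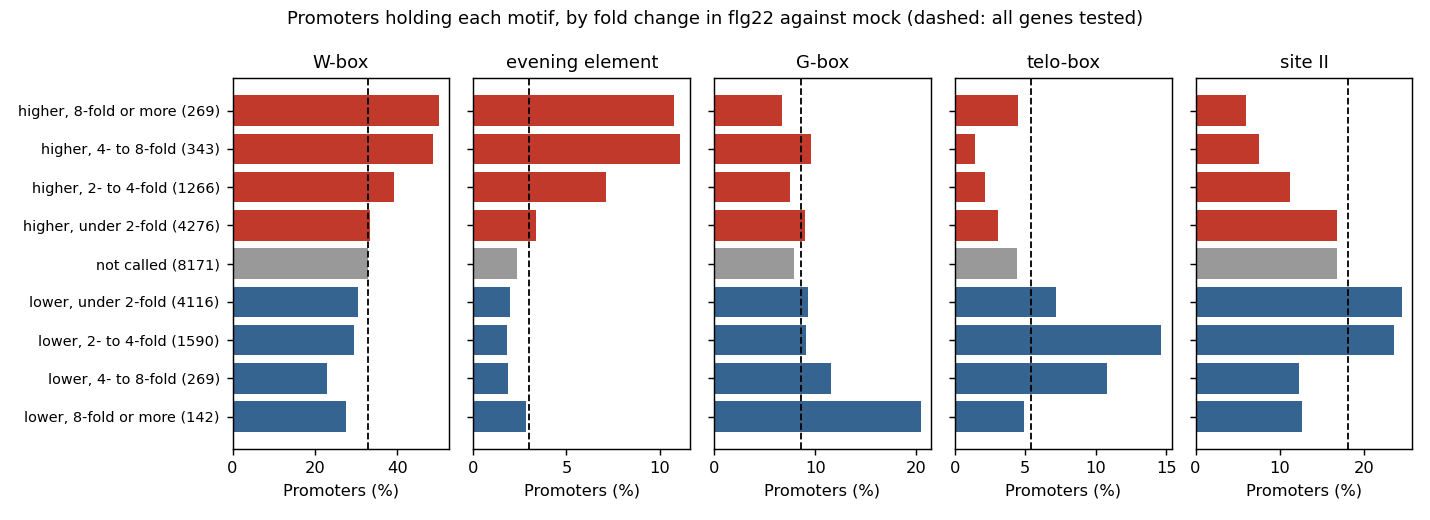
Percent of promoters that hold each of 5 motifs, in 9 classes by fold change of flg22 over mock, from rises of 8-fold or more at the top to falls of 8-fold or more at the bottom, with the number of genes in brackets and a dashed line for all genes tested. W-boxes reach 50.2% in the largest rises, and telo-boxes 14.7% in genes 2- to 4-fold lower but 4.93% in the largest falls.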

How the data were processed

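RNA sequencing libraries of whole Col-0 seedlings were compared, 3 with flg22 and 3 of mock. The authors deposited 1 table of read counts per gene and library, not normalized. Trimmomatic 0.36, HISAT2, edgeR and the TAIR10 build are named, per the submitters' processing notes; no counting program or strand setting is named there.

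From these counts, genes with low reads were filtered (filterByExpr, minimum count 10, minimum total 15), libraries were scaled by TMM, and edgeR 4.0.16 in R 4.3.3 fitted all 9 libraries in 1 quasi-likelihood model with group means and 6 residual degrees of freedom. The test of flg22 minus mock was two-sided, with Benjamini-Hochberg adjustment over 21059 genes and a threshold of 0.05. The SE is the size of the log2 fold change divided by the square root of its F value. The script was tested on simulated data. Depth was 27837775 to 33195007 counts per library. Libraries within a group differed beyond counting noise, and each was treated as 1 replicate. That spread does not show that the libraries came from separate cultures.

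Families were matched by symbol and description, and gene models, names and promoters came from RefSeq's annotation of TAIR10.1, which held 20953 of the genes tested. Counts of members carry no test of the family. Named genes were the 10 largest rises and 10 largest falls without overlap between groups outside a list of 27 genes, known responders and genes already seen to change in these data, the 6 largest gains and losses in CPM, up to 3 members a direction with the smallest p in each family, and members of fixed gene lists; members of families of at most 14 measured genes could also be named. Members and lists were chosen with earlier results of these data known. Replicate numbers did not pair the libraries, since deviations of same-numbered libraries correlated at 0.031, -0.042 and -0.033. Alternatives were DESeq2 1.42.0, its size factors, no filter, 6 libraries, a replicate block and libraries left out.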

Additional observations from a re-analysis of the deposited data

How the results depend on the processing

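The total of 12457 calls was 12452 with DESeq2's size factors, 12488 with DESeq2's own test, 12361 with no filter, 12226 with the 6 libraries alone and 10973 without the 3 libraries of highest organelle share. With the replicate number as a block the count was 12264, of which 12107 were shared with the unblocked fit, although the numbers did not pair the libraries. Leaving out 1 library in turn gave 11293 to 12162 calls, with 5741 to 6099 higher and 5487 to 6063 lower, and 3759 to 4274 calls of at least 2-fold. In none of these settings was a gene called in the opposite direction. The families and lists with no call in 1 direction (wall-associated kinases, CC-NBS-LRR receptors, cation/H+ exchangers, annexins, type-A response regulators, replication genes, small nucleolar RNAs and both clock lists) had 0 such members also at an unadjusted edgeR p under 0.05 and by DESeq2. Over the same leave-outs, 61 to 65 TIR-NBS-LRR receptors and 25 to 28 cysteine-rich receptor-like kinases were higher, and 246 to 251 ribosomal protein genes and 18 to 19 arabinogalactan proteins were lower. Across genes, the median shift from the main fit was at most 0.0143 on the log2 scale. Scaling centres most genes near no change in every setting, so this small shift is largely set by the scaling. Counting error limits genes of few reads, and libraries whose cultures are not described limit every p-value.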
